A study of Mus musculus with 10 samples.

Results

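Genes of the switch that turns the pyruvate dehydrogenase (PDH) complex on and off, 8 in all, were followed through every liver library. They are the kinases Pdk1, Pdk2, Pdk3 and Pdk4, the phosphatases Pdp1 and Pdp2, and Pdha1 and Pdhb, which encode the alpha and beta subunits of the E1 enzyme. They were chosen by symbol, and with the high level of Pdk4 in control 2 already known, so that library's Pdk4 level is a description and supports nothing here. All 8 of 8 were found once each among the 46071 gene rows of the count table, and all 8 were among the 14820 genes that passed the filter on low counts.

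Liver RNA was sequenced in 10 libraries from the offspring of 3 kinds of cross. FL, the offspring of a LIRKO father (IRlox/lox; Albumin-Cre+/-) and a control mother, had 3 libraries, numbered 5 to 7. ML, the offspring of a LIRKO mother (IRlox/lox; Albumin-Cre+/-) and a control father, had 3 libraries, numbered 8 to 10. Controls, whose parents both were IRlox/lox; Albumin-Cre-/-, had 4 libraries, numbered 1 to 4. LIRKO mice lack the insulin receptor in hepatocytes, since the albumin promoter drives Cre there, and the floxed receptor allele is shared by the parents of all 3 groups. The labels name neither the offspring's own genotype nor their sex, age, litter, diet or feeding state. The comparisons ask whether the liver of the offspring differs with a parent's loss of hepatic insulin receptor. The libraries are labelled as separate samples, but nothing states outright that each is 1 animal, and p-values speak only of the scatter among these libraries.

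PDH, in the mitochondrial matrix, turns pyruvate into acetyl-CoA, a step that animals cannot run backwards. The PDH kinases phosphorylate the E1 alpha subunit and stop it, and the PDH phosphatases remove the phosphate and restart it. In the fasted liver, PDH is held off so that pyruvate is kept for glucose synthesis while fat is burned. Pdk4 is the kinase gene best known for induction by fasting, through PPARA, FOXO1 and glucocorticoids, and for repression by insulin. Pdk2 is the main kinase of the fed liver, Pdk1 is known as a target of the hypoxia factor HIF1, and Pdk3 is best known from other tissues. Pdp2 is known, from rat, as the insulin-sensitive phosphatase, and Pdp1 as the calcium-stimulated one abundant in muscle.

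Library totals ran from 23192571 to 31116742 counts in FL, from 26614915 to 34568205 in ML and from 18655506 (control 1) to 39379940 in controls. Levels are given in CPM, read counts scaled to the library's total with TMM factors applied to that total. The summed CPM of 6 hepatocyte markers was 64390 to 74128 in FL, 58787 to 103124 in ML and 66236 to 96521 in controls. ML 9 and control 1 stood apart. The median of 614 genes with less than 1000 bp of exon was 2.04 above their mean (log2 scale) in ML 9 and 0.68 above it in control 1, against -0.73 to 0.40 in the other 8 libraries. Insr, the receptor gene, had 59.3 to 77.6 CPM in FL, 28.2 to 55.2 CPM in ML and 62.9 to 128 CPM in controls. Values without control 1, control 2 or ML 9 are given where these libraries move a result most.

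The promoter windows of 3 genes are shown. They were picked as the kinase with the widest range (Pdk4) and, per kb of exon, the most abundant kinase (Pdk2) and phosphatase (Pdp2). Windows are from RefSeq on GRCm38.p6 and run from 250 bases before to 50 bases after a start site. Capitals mark matches to a motif searched on both strands. The 3 windows lie at chr6:5496229-5496528 on the minus strand (Pdk4), chr11:95041322-95041621 on the minus strand (the more upstream of 2 Pdk2 windows) and chr8:104591222-104591521 on the plus strand (Pdp2).
Pdk4: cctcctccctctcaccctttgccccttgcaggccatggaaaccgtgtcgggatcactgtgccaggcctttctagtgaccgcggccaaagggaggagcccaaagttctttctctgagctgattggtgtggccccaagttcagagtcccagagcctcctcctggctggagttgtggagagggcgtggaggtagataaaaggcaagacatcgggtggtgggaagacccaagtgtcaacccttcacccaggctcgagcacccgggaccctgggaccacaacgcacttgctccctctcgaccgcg
Pdk2: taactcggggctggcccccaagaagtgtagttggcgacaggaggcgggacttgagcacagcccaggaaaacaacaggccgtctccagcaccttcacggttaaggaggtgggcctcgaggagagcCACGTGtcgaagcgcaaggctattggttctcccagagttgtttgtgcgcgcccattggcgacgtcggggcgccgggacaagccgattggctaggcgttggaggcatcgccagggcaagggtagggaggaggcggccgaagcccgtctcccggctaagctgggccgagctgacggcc
Pdp2: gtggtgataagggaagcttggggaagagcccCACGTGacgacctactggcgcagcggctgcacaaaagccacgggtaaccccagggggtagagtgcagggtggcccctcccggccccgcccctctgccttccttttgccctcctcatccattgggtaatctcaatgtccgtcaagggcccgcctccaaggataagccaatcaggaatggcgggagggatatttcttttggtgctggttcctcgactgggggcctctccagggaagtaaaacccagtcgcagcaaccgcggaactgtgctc

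The 5 motifs searched were the FOXO element GTAAACA, the PPAR DR1 element, the glucocorticoid half-element TGTTCT, the hypoxia core ACGTG and the half-site AGGTCA. Of 32851 promoter windows, 3.65% held the FOXO element, 0.0396% DR1, 19% TGTTCT, 19.6% ACGTG and 16.3% AGGTCA. The Pdk4 window held none of the 5, which says only that these letters are not in this window. The Pdk2 and Pdp2 windows shown each held ACGTG on both strands, as overlapping matches within CACGTG. The windows of Pdk3 and Pdhb had 1 match to ACGTG each, the second Pdk1 window had 2 to TGTTCT, and the Pdha1 window had none of the 5. The Pdk4 window had 12 CG dinucleotides and 60.7% GC, and the Pdk2 window had 25 and 64.7%, against medians of 7 and 52.7% over all windows. Windows were at hand for 7 of the 8 genes, 9 in all, and Pdp1 had none.

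Pdk4 (ENSMUSG00000019577, chromosome 6, 5483351 to 5496309, minus strand, GRCm38) varied more than any other of the 8 genes. It had 2.11, 1.51 and 2.15 CPM in FL 5, FL 6 and FL 7. It had 1.92, 1.63 and 3.94 CPM in ML 8, ML 9 and ML 10. It had 3.76, 51.3, 12.9 and 8.23 CPM in controls 1 to 4. Every FL library lay below every control library, while ML 10 lay just above control 1, the lowest control. Control 2 was 34.1 times as high as FL 6, the lowest library, on counts of 2013 and 52.

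Mean Pdk4 was 1.92 ± 0.363 CPM in FL (SD, n = 3), 2.5 ± 1.26 CPM in ML (SD, n = 3) and 19 ± 21.8 CPM in controls (SD, n = 4). Without control 2 the control mean was 8.28 ± 4.55 CPM (SD, n = 3). Against control, the fitted log2 fold change was -3.31 (SE 0.81), or 9.9-fold lower, for FL and -2.92 (SE 0.79), or 7.58-fold lower, for ML. These 2 values have no p here because control 2 entered the choice of the gene, and they share their control libraries. In bulk liver RNA, fewer cells of a type and less RNA per cell cannot be told apart.

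**Figure D1:**
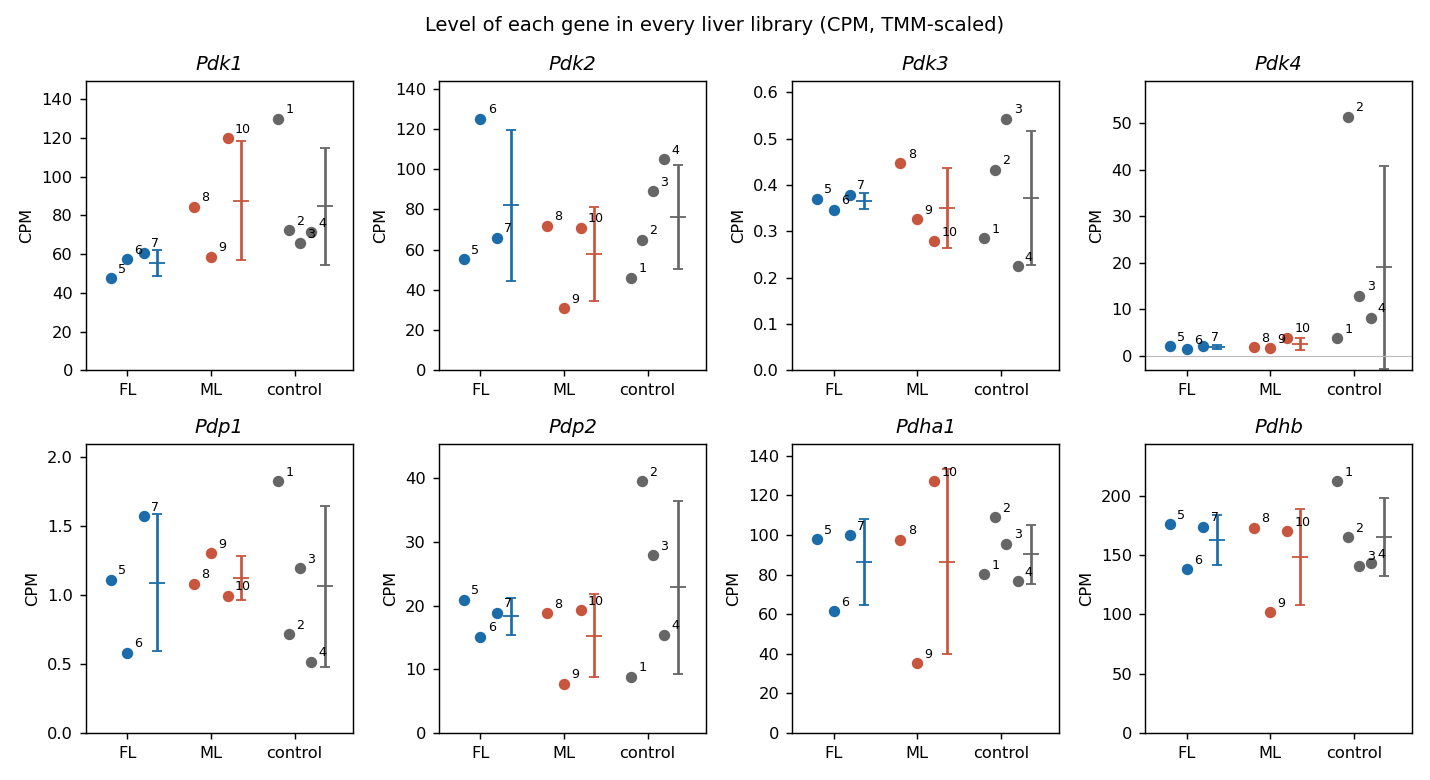
Level of each gene in every library, in CPM on linear axes that differ between panels; points are libraries with their numbers, and bars are the mean ± SD of FL (n = 3), ML (n = 3) and control (n = 4). Control 2 stands at 51.3 CPM in the Pdk4 panel, where the control SD bar reaches below 0, and no other gene has a range as wide.

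The genes were chosen with earlier results of these data known, so even without control 2 a test of Pdk4 is not independent of that choice. The log2 fold change was then -2.11 (SE 0.52, 95% interval -3.25 to -0.97) in FL, 4.31-fold lower, with an adjusted p of 0.739 in edgeR. In ML it was -1.72 (SE 0.51, interval -2.85 to -0.59), 3.3-fold lower, with an adjusted p of 0.576. The unadjusted p were 0.00189 and 0.00641, so Pdk4 did not pass over all genes in either group. DESeq2 on the same 9 libraries called Pdk4 in FL (adjusted p = 0.0274, log2 fold change -2.11), where it called 0.302% of genes. It did not call Pdk4 in ML (adjusted p = 0.276), where it called 0.132% of genes, and limma-voom called it in neither (adjusted p = 0.772 in FL and 0.703 in ML). The adjusted p without control 2 thus ran from 0.0274 to 0.772 in FL and from 0.276 to 0.703 in ML over the 3 tools.

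FL and ML did not differ detectably in Pdk4. The log2 fold change of FL against ML was -0.39 (SE 0.78, interval -2.09 to 1.32, adjusted p = 0.778 in edgeR), and the FL and ML ranges overlapped. Without ML 10, which had the highest Pdk4 of both groups, it was 0.12. The interval still holds differences of more than 2-fold in either direction, so a p above the threshold does not show that the 2 groups are alike.

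**Figure D2:**
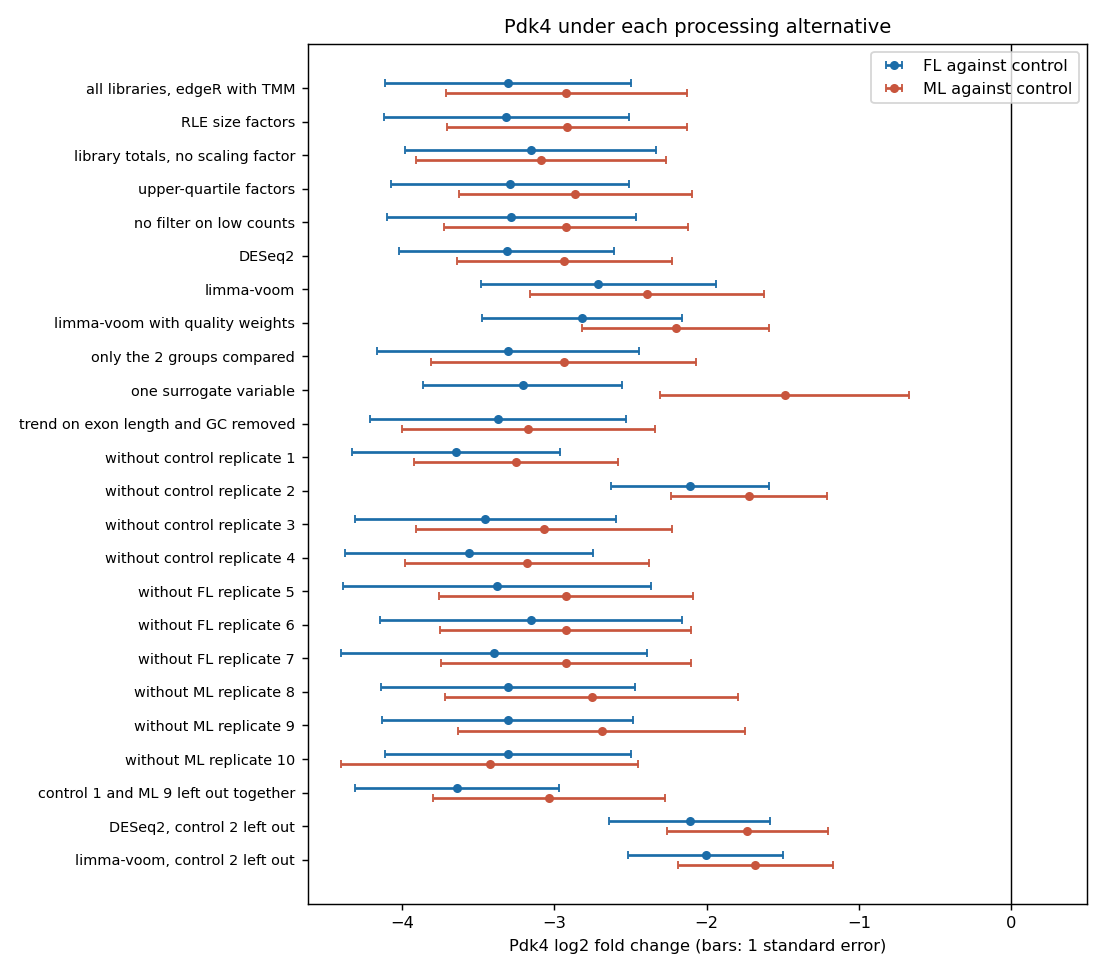
Pdk4 log2 fold change in FL (blue) and ML (red) against control under each processing alternative, with bars of 1 standard error. All points lie left of 0, from -3.65 to -2.01 in FL and from -3.42 to -1.49 in ML, and leaving out control 2 moves both groups toward 0.

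Pdk2 (ENSMUSG00000038967, chromosome 11, 95026258 to 95041354, minus strand) was the most abundant kinase gene per kb of exon in 9 of 10 libraries. It had 55.1, 125 and 65.8 CPM in FL 5, FL 6 and FL 7. It had 71.9, 30.8 and 70.8 CPM in ML 8, ML 9 and ML 10. It had 46, 64.8, 88.9 and 105 CPM in controls 1 to 4. The 3 groups overlapped, with FL 6 the highest library and ML 9 the lowest. Against control, FL was at 0.10 (SE 0.41, interval -0.80 to 1.00) and ML at -0.40 (SE 0.42, interval -1.31 to 0.51) on the log2 scale, with adjusted p of 1 and 0.61 in edgeR. Without ML 9 the ML value was -0.08, and without control 1 the FL value was -0.08.

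Pdk1 (ENSMUSG00000006494, chromosome 2, 71873224 to 71903858, plus strand) had 47.7, 57.4 and 60.8 CPM in FL 5, FL 6 and FL 7. It had 84.5, 58.7 and 120 CPM in ML 8, ML 9 and ML 10. It had 130, 72.5, 65.6 and 71.2 CPM in controls 1 to 4. Every FL library lay below every control library, the closest pair being FL 7 and control 3. The log2 fold change in FL against control was -0.62 (SE 0.34, interval -1.35 to 0.12), with an unadjusted p of 0.0928 and an adjusted p of 1 in edgeR, so it did not pass. It was -0.33 without control 1 and ML 9, control 1 being far above the other controls. In ML against control it was 0.05 (SE 0.33, interval -0.68 to 0.77), and in FL against ML -0.66 (SE 0.36, interval -1.44 to 0.12, adjusted p = 0.291 in edgeR). Without control 1 and ML 9, Pdk1 was at 0.56 (SE 0.21, adjusted p = 0.143 in edgeR) in ML against control and at -0.88 (SE 0.21, adjusted p = 0.213) in FL against ML.

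Pdk3 (ENSMUSG00000035232, chromosome X, 93764607 to 93832201, minus strand) was the lowest of the 8 genes per kb of exon in 8 of 10 libraries. It had 10 to 13 counts in FL, 5 to 17 in ML and 5 to 21 in controls. Its mean was 0.365 ± 0.0161 CPM in FL (SD, n = 3), 0.351 ± 0.0864 CPM in ML (SD, n = 3) and 0.371 ± 0.144 CPM in controls (SD, n = 4). At this depth the fitted intervals allow about a doubling or halving in either direction, being -1.09 to 1.02 in FL and -1.16 to 0.99 in ML against control on the log2 scale.

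Weighed against each other per kb of exon, Pdk2 and Pdk1 made up most of the kinase RNA. Pdk2 held 75.2 ± 6.92% of the summed kinase level in FL (SD, n = 3), 59.4 ± 6.14% in ML (SD, n = 3) and 58.6 ± 15.4% in controls (SD, n = 4). Pdk1 held 22.5 ± 6% in FL, 37.8 ± 5.48% in ML and 28.4 ± 15.4% in controls. FL and ML did not overlap in the share of Pdk2, at 70.8 to 83.2% in FL and 54.4 to 66.2% in ML, but control shares ran from 44.9 to 74.1% across both, and the shares were not tested. Control 1 alone had more Pdk1 than Pdk2, with Pdk1 at 51.5%.

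Pdk4 held 2.48, 0.906 and 2.09% of the kinase level in FL 5, FL 6 and FL 7. It held 1.59, 2.6 and 2.88% in ML 8, ML 9 and ML 10. It held 3.3, 32.8, 9.06 and 5.23% in controls 1 to 4, so every control library lay above every FL and ML library in this share, which uses the level behind the choice of Pdk4 and is a description. In control 2, Pdk2 held 46%. With the longest transcript in place of exon length, control 2 had 25.5% Pdk4 and 50% Pdk2. The summed kinase level itself was 24.3 to 47.3 CPM per kb in FL, 17.9 to 39 in ML and 32.4 to 44.8 in controls. Control 2, at 44.6, was within the range of the other libraries in this sum.

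**Figure D3:**
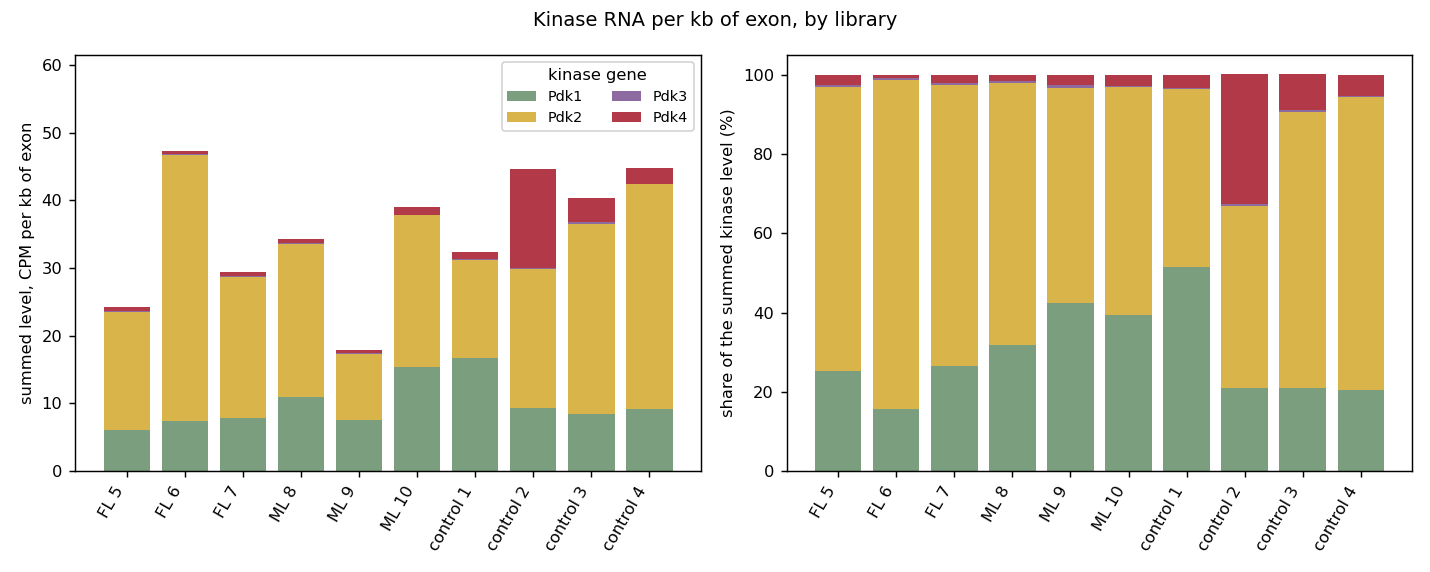
Kinase RNA in each library as the summed CPM per kb of exon (left) and as the percent share of each kinase (right), both on linear axes. Pdk2 is the largest part in 9 of 10 libraries, and the Pdk4 part reaches 32.8% in control 2 against at most 2.88% in any FL or ML library.

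Pdp2 (ENSMUSG00000048371, chromosome 8, 104591451 to 104599026, plus strand) carried 79.3 to 97.8% of the phosphatase level per kb of exon. It had 20.9, 15.1 and 18.9 CPM in FL 5, FL 6 and FL 7. It had 18.8, 7.76 and 19.3 CPM in ML 8, ML 9 and ML 10. It had 8.83, 39.5, 27.9 and 15.4 CPM in controls 1 to 4. The groups overlapped, and control 2 was the highest library for Pdp2 as for Pdk4. Against control, FL was at -0.33 (SE 0.48, interval -1.38 to 0.73) and ML at -0.58 (SE 0.49, interval -1.65 to 0.48) on the log2 scale, with adjusted p of 1 and 0.518 in edgeR. Without control 2 the FL value was 0.07 and the ML value -0.18, and without ML 9 the ML value was -0.26.

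Pdp1 (ENSMUSG00000049225, chromosome 4, 11958184 to 11966452, minus strand) was low in all libraries, with 20 to 54 counts in FL, 20 to 41 in ML and 23 to 46 in controls. Its mean was 1.09 ± 0.497 CPM in FL (SD, n = 3), 1.12 ± 0.161 CPM in ML (SD, n = 3) and 1.06 ± 0.582 CPM in controls (SD, n = 4). Its log2 fold change against control was 0.06 (SE 0.51) for FL and 0.10 (SE 0.51) for ML. The ratio of summed kinase to summed phosphatase level per kb was 6.21, 17 and 8.01 in FL 5, FL 6 and FL 7. It was 9.7, 10.8 and 10.8 in ML 8, ML 9 and ML 10, and 16.6, 6.28, 7.83 and 15.9 in controls 1 to 4, so controls spanned nearly the whole range.

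The E1 subunits differed in how much they varied. Pdhb (ENSMUSG00000021748, chromosome 14, 8165996 to 8173025, minus strand) had the smallest range of the 8 genes, 2.08-fold from lowest to highest library. It had 138 to 176 CPM in FL, 102 to 173 CPM in ML and 141 to 212 CPM in controls. Its log2 fold change against control was -0.02 (SE 0.29, interval -0.66 to 0.61) for FL and -0.16 (SE 0.29, interval -0.79 to 0.48) for ML. The SD of its log2 CPM over the 10 libraries, 0.286, was above that of 7.68% of genes tested.

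Pdha1 (ENSMUSG00000031299, chromosome X, 160122209 to 160138413, minus strand) had 61.4 to 99.8 CPM in FL, 35.2 to 127 CPM in ML and 76.5 to 109 CPM in controls. Its exons share 603 bases with Map3k15 on the other strand, and since the strand setting of the counting is not given, reads there cannot be assigned to either gene with certainty. The other 7 genes share no exon base with another gene. Against control, Pdha1 was at -0.07 (SE 0.39, interval -0.92 to 0.79) in FL and at -0.06 (SE 0.39, interval -0.92 to 0.80) in ML on the log2 scale. Without ML 9 the ML value was 0.33 for Pdha1 and 0.07 for Pdhb. The range of Pdha1 from lowest to highest library was 3.61-fold. Pdha1 had 0.459 to 0.593 of the Pdhb level per kb in FL, 0.357 to 0.773 in ML and 0.391 to 0.702 in controls.

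Ordered by median CPM per kb of exon, the 8 genes were Pdhb (43.4), Pdha1 (25.8), Pdk2 (21.6), Pdk1 (8.79), Pdp2 (3.31), Pdk4 (0.842), Pdp1 (0.243) and Pdk3 (0.14). Pdhb was above Pdha1, Pdk1 above Pdp2, and Pdk4 above Pdp1 in 10 of 10 libraries. Pdk2 was above Pdk1, and Pdp2 above Pdk4, in 9 of 10. Pdp1 was above Pdk3 in 8 of 10. Pdha1 and Pdk2 could not be ordered, with Pdha1 above in 6 of 10 and ranges of 9.43 to 34.1 and 9.73 to 39.4 CPM per kb.

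Across all genes, edgeR called 0.0135% in FL against control, 0% in ML against control and 0.00675% in FL against ML at an adjusted p under 0.05. None of the 7 genes other than Pdk4 passed in FL or ML against control, and none of the 8 passed in FL against ML. None was under an unadjusted p of 0.05 either, a level that 3.53% of all genes reached in FL against control, 16.1% in ML against control and 20% in FL against ML. DESeq2 and limma-voom likewise put none of these under an unadjusted p of 0.05. DESeq2 on all 10 libraries called 0.345% of genes in FL against control, 0.358% in ML against control and 0.148% in FL against ML. Pdk4 was among its calls in both control comparisons, from which nothing is read because control 2 is in that fit.

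In FL against control, 2 of the 8 genes, Pdk1 and Pdk4, had every FL library below every control library, as did 2.92% of all genes. Pdk4 was chosen with its high level in control 2 known, so its part in this and the next counts against control is a description. In ML against control 0 of 8 did, beside 2.86% of all genes. Log2 fold changes below 0 were found for 6 of 8 genes in FL against control, beside 55.3% of all genes. They were found for 6 of 8 in ML against control, beside 52.9%, and for 4 of 8 in FL against ML, beside 47.9%. Each control comparison had 3 of 4 kinases, 1 of 2 phosphatases and 2 of 2 E1 subunits below 0. The kinases were not the same ones, since Pdk1 was below 0 only in FL and Pdk2 only in ML.

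**Figure D4:**
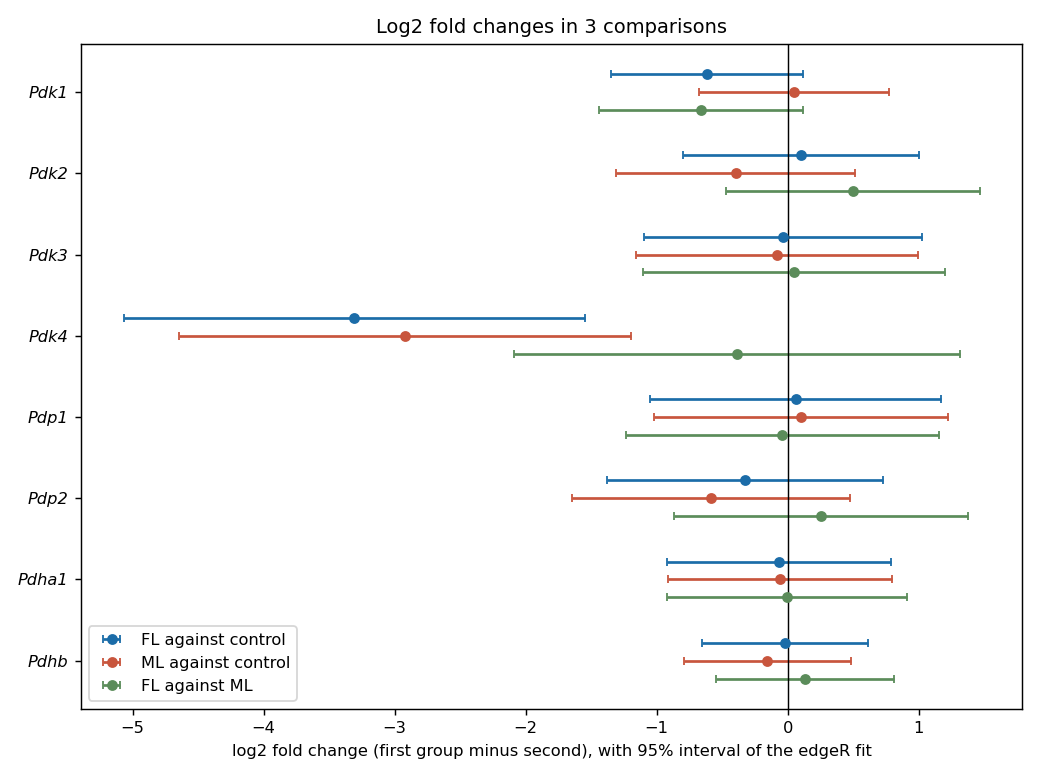
Log2 fold change of each gene with its 95% interval from the edgeR fit over all 10 libraries, for FL against control (blue), ML against control (red) and FL against ML (green). For the 7 genes other than Pdk4 all intervals span 0; the Pdk4 values against control, -3.31 and -2.92, are a description, since they include control 2.

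The rest of the PDH complex, Dlat (the E2 core), Dld (E3) and the genes that attach lipoic acid among them, had 7 of 8 listed genes tested. Their median log2 fold change was -0.10 in FL against control, where 5 of 7 were negative, and 0.12 in ML against control, where 1 of 7 was, beside -0.05 and -0.05 for all genes. By edgeR none passed, and 0 in FL and 1 in ML were under an unadjusted p of 0.05, beside 3.53% and 16.1% of all genes. Dlat had 36.9 to 41.3 CPM in FL, 29.2 to 50.2 CPM in ML and 47.5 to 77 CPM in controls. Its log2 fold change was -0.56 (SE 0.29) in FL and -0.55 (SE 0.29) in ML. Lipt2, a lipoyl transferase, was the 1 gene under that p in ML, at 1.54 (SE 0.54, adjusted p = 0.301 in edgeR), and had 13.7 CPM in ML 9 and 5.81 CPM in control 1 against 1.55 to 5.46 CPM elsewhere. Without control 1 and ML 9, Lipt2 was at 1.55 (SE 0.32, adjusted p = 0.0954 in edgeR) in ML, and the list had 3 of 7 below 0 (median 0.03) in FL and 1 of 7 (median 0.40) in ML.

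Of 12 genes that supply pyruvate to PDH or take it elsewhere, 9 lay below 0 in FL against control (median -0.23) and 5 in ML against control (median 0.21). No gene of them passed in edgeR, and 2 and 3 were under an unadjusted p of 0.05, beside 3.53% and 16.1% of all genes. Me1, malic enzyme, which makes pyruvate and NADPH for fat synthesis, had 55.2 to 89.9 CPM in FL, 70 to 124 CPM in ML and 106 to 304 CPM in controls. Its log2 fold change was -1.46 (SE 0.38, adjusted p = 0.742 in edgeR) in FL and -1.11 (SE 0.38, adjusted p = 0.301) in ML. Slc16a7, a monocarboxylate transporter, was at -0.73 (SE 0.33) in FL. Mpc1 and Mpc2 form the mitochondrial pyruvate carrier. Mpc1 was at -0.74 (SE 0.46) in FL against control, and control 1 had 175 CPM of it against 51.2 to 53.2 CPM in the other controls. Mpc2 was at 1.37 (SE 0.55, adjusted p = 0.301) and Ldhb, a lactate dehydrogenase subunit, at 1.42 (SE 0.59) in ML, where ML 9 was the highest library for both. Without control 1 and ML 9, Mpc1 was at -0.06 (SE 0.21) in FL and 1.04 (SE 0.23) in ML, Mpc2 at 1.13 (SE 0.30) and Ldhb at 0.05 (SE 0.33) in ML. Me1 was then at -1.19 (SE 0.30) in FL and -0.68 (SE 0.33) in ML. The list had 8 of 12 below 0 (median -0.13) in FL and 6 of 12 (median -0.02) in ML without the 2 libraries.

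Of 10 genes of acetyl-CoA use, 7 lay below 0 in FL against control (median -0.06) and 6 in ML against control (median -0.29). None passed in edgeR, and 1 and 4 were under an unadjusted p of 0.05, beside 3.53% and 16.1% of all genes. DESeq2 called only Acacb in ML, where it called 0.358% of all genes. Acacb, the acetyl-CoA carboxylase whose product restrains fat burning, had 50.3 to 78.5 CPM in FL, 12.6 to 25.9 CPM in ML and 37 to 148 CPM in controls. In ML against control it was at -2.14 (SE 0.52, adjusted p = 0.301 in edgeR). Acly, the citrate lyase that returns acetyl-CoA to the cytosol, was at -1.21 (SE 0.39) and Acss2, a cytosolic acetyl-CoA synthetase, at -1.15 (SE 0.33) in ML. Acss2 was at -0.76 (SE 0.33), Idh3a, a citrate cycle dehydrogenase subunit, at 0.53 (SE 0.27) and Cs, citrate synthase, at -0.19 (SE 0.25) in FL. Without control 1 and ML 9, 7 of 10 lay below 0 in each, with medians of -0.10 in FL and -0.50 in ML, and Acacb in ML was at -2.23 (SE 0.55). Without control 2, 5 of 10 (median -0.01) lay below 0 in FL.

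The sister system that controls branched-chain 2-oxoacid dehydrogenase, with other 2-oxoacid dehydrogenase subunits, had 5 of 7 genes below 0 in FL (median -0.10) and 4 of 7 in ML (median -0.13) against control. None passed in edgeR or DESeq2, and 0 and 1 were under an unadjusted p of 0.05 in edgeR, beside 3.53% and 16.1% of all genes. Its kinase Bckdk was at 0.21 (SE 0.33) in FL and 0.72 (SE 0.33) in ML, with 22.9 CPM in ML 9 against 6.65 to 11.9 CPM elsewhere. Its phosphatase Ppm1k was at -0.82 (SE 0.40) in FL. Ogdh, the E1 of 2-oxoglutarate dehydrogenase, was at -0.91 (SE 0.48) in ML. Without control 1 and ML 9, Bckdk in ML was at 0.29 (SE 0.26), and the list's median was -0.17 in FL and -0.001 in ML.

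Among 27 fasting genes known to be induced beside Pdk4 by PPARA, FOXO1 or glucocorticoids, 26 lay below 0 in FL against control. Their median log2 fold change was -0.92, beside -0.05 for all genes. In edgeR, 11 of 27 were under an unadjusted p of 0.05, beside 3.53% of all genes. None passed in edgeR. DESeq2 called 6, beside 0.345% of all genes: Cyp4a14, Cyp4a10, Vnn1, Igfbp1, Sgk1 and Txnip. Control 2 is in that fit and was the highest library for Cyp4a14, Cyp4a10, Igfbp1 and Txnip. The list was chosen with its high Pdk4 known, so these counts and calls are a description. In ML against control 14 of 27 lay below 0 with a median of -0.21, beside -0.05 for all genes. In edgeR 6 were under an unadjusted p of 0.05, beside 16.1% of all genes, and none passed. DESeq2 called Igfbp1 and Irs2, beside 0.358% of all genes. Control 2 is in this fit too and was the highest library for Igfbp1, so these calls also are a description. In FL against ML 21 of 27 lay below 0 with a median of -0.65, beside 0.04 for all genes. In edgeR 12 were under an unadjusted p of 0.05, beside 20% of all genes, and none passed. DESeq2 called Cyp4a14, Cyp4a10 and Vnn1, beside 0.148% of all genes.

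Control 2 was the highest library for 12 of the 27 fasting genes, beside 12.4% of all genes. The list was chosen with the high Pdk4 of control 2 known, so this count is a description. Without it, 24 of 27 lay below 0 in FL against control with a median of -0.59, and 13 of 27 in ML with a median of 0.10. None passed in edgeR in either comparison without it. Without control 1 and ML 9, the counts were 27 of 27 with a median of -1.08 in FL and 17 of 27 with a median of -0.12 in ML. Igfbp1, a liver-secreted protein repressed by insulin, had the highest Pearson's r with Pdk4 in this list over the 10 libraries, 0.872. Without control 2 its r was 0.855, and that of G6pc, the glucose-6-phosphatase of glucose output, was 0.858. Igfbp1 had 5.56, 34.4 and 16.3 CPM in FL 5, FL 6 and FL 7, and 7.04, 20.5 and 160 CPM in ML 8, ML 9 and ML 10. It had 245, 1596, 521 and 435 CPM in controls 1 to 4, so controls lay above every FL and ML library. Of all genes, 2.92% had all FL libraries below all controls, and 2.86% had all ML libraries below them. Control 2 was highest for Igfbp1 as for Pdk4, but ML 10 lay above control 1 in Pdk4. Igfbp1 is singled out by an r that includes control 2, so its likeness to Pdk4 is a description.

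Some PPARA targets in the list ran unlike Pdk4 and others more like it. Plin2, a lipid droplet coat protein, had 184 to 409 CPM in FL, 246 to 439 CPM in ML and 344 to 827 CPM in controls, with control 2 the highest. Cyp4a14, a fatty acid omega-hydroxylase, had 1.91 to 6.32 CPM in FL, 131 to 513 CPM in ML and 13.1 to 730 CPM in controls, so ML lay within the control range while its Pdk4 lay near that of FL. Vnn1, a pantetheinase, had 9.5 to 13.6 CPM in FL, 30.9 to 57.2 CPM in ML and 21.9 to 50.8 CPM in controls. Cyp4a10 had 11.9 to 26.7 CPM in FL, 177 to 350 CPM in ML and 41.5 to 574 CPM in controls. Its reads may be split with any Cyp4a gene of near-identical sequence, which was not tested. Irs2, an insulin receptor substrate, was at -3.08 (SE 0.93, adjusted p = 0.301 in edgeR) in ML against control, and Sgk1, a glucocorticoid-induced kinase, at -1.02 (SE 0.34, adjusted p = 0.301).

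**Figure D5:**
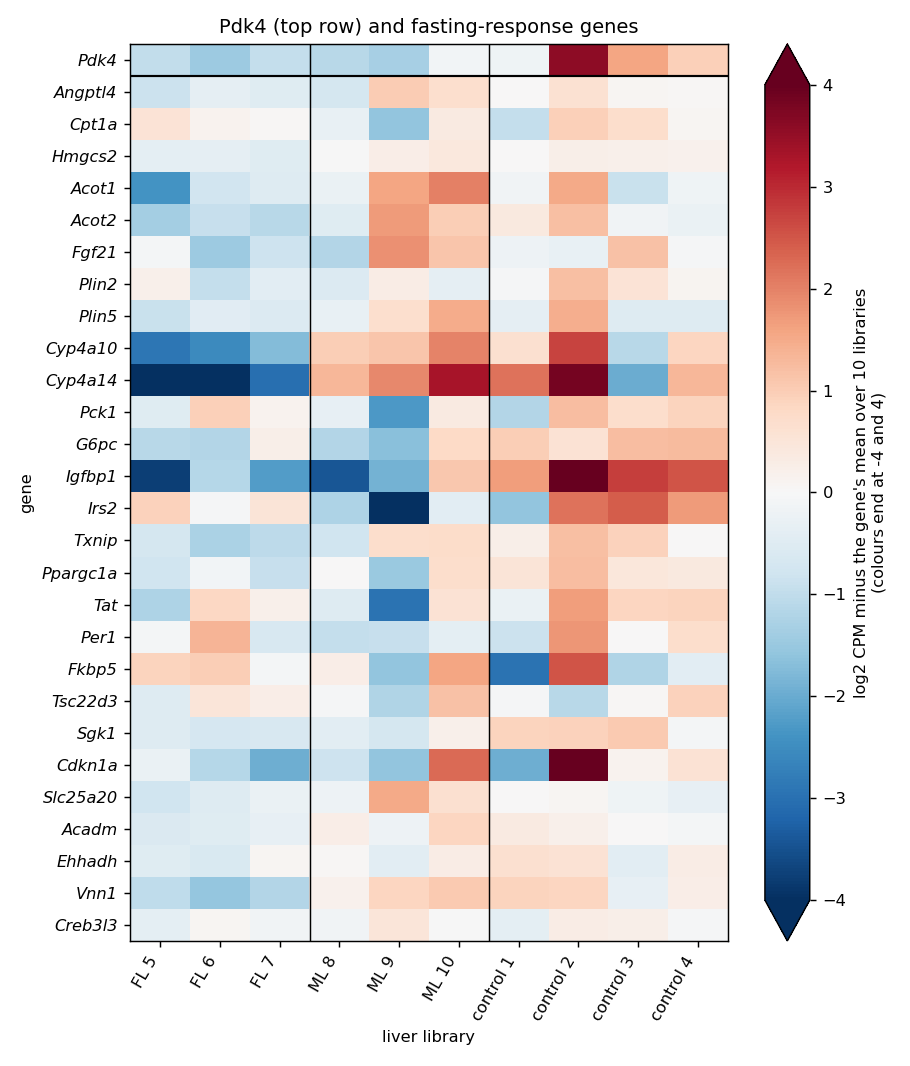
Pdk4 (top row) and the 27 fasting genes in each library, as log2 CPM minus the gene's mean over the 10 libraries, with colours ending at -4 and 4. Control 2 is the highest library for Pdk4 and for 12 of the 27 genes, and the FL columns are below the mean for most of them.

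Of 13 genes for regulators of Pdk4 transcription, 6 lay below 0 in FL (median 0.05) and 9 in ML (median -0.56) against control. The FL count was 10 of 13 (median -0.24) without control 1 and ML 9 and 7 of 13 (median -0.18) without control 2, so the sign of its median rests on these libraries. In ML the count was 10 of 13 both ways, with medians of -0.35 and -0.41. Neither edgeR nor DESeq2 called any, and 1 and 0 were under an unadjusted p of 0.05 in edgeR, beside 3.53% and 16.1% of all genes. That 1 was Ppargc1a, a coactivator that is also in the fasting list, at -1.27 (SE 0.48, adjusted p = 1 in edgeR) in FL. It had 3.09 to 5.47 CPM in FL, 2.09 to 9.55 CPM in ML and 7.78 to 13.8 CPM in controls, with control 2 the highest. Esrra, the nuclear receptor ERR alpha, was at 1.08 (SE 0.51), and Cebpb at -0.85 (SE 0.45) in ML.

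Of 14 hypoxia genes known to be induced with Pdk1 by HIF1, 10 lay below 0 in FL (median -0.14) and 10 in ML (median -0.20) against control. Again edgeR and DESeq2 called none, and 0 and 2 were under an unadjusted p of 0.05 in edgeR, beside 3.53% and 16.1% of all genes. Those 2 went opposite ways in ML, Vegfa, an endothelial growth factor, at -1.02 (SE 0.40) and Ankrd37 at 1.44 (SE 0.57). Without control 2 the FL count was 7 of 14 (median -0.01), and without control 1 and ML 9 it was 11 of 14 (median -0.10). Bnip3, a mitophagy receptor, had 158 to 251 CPM in FL, 304 to 851 CPM in ML and 137 to 686 CPM in controls. Its highest libraries, ML 10, ML 9 and control 1, included the 2 libraries with the highest Pdk1, ML 10 and control 1, but Pdk1 was at only 58.7 CPM in ML 9. Vegfa ran otherwise, with 56.5 CPM in ML 10 and 70.3 CPM in control 1 against 149 CPM in FL 6. Whether the list follows Pdk1 was not tested.

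The 8 genes whose log2 CPM followed that of Pdk4 most closely, of 11197 ranked over the 10 libraries, were Cfap43, Slc38a2, Tmem204, Atf3, Ercc5, Psmd11, Ankrd44 and Tnfrsf1b. Pearson's r was 0.967 (Spearman's rho 0.867) for Cfap43 and 0.947 (0.879) for Slc38a2, a neutral amino acid transporter. For the other 6, r ran from 0.878 to 0.917 and rho from 0.576 to 0.794. Without control 2, Cfap43 still ranked 1 (r = 0.928) and Slc38a2 ranked 4 (r = 0.907), while the other 6 ranked from 36 to 160. Slc38a2 had 108 to 120 CPM in FL, 74.5 to 181 CPM in ML and 195 to 537 CPM in controls. Atf3, a stress-induced transcription factor, had 30.8 CPM in control 2 against 1.25 to 6.13 CPM in all other libraries. The libraries are shared by all these values, and no test goes with them.

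Pdk4 is abundant in heart, skeletal muscle and fat, so markers of these tissues were summed in each library. The summed CPM of 5 skeletal muscle markers was 0.481 to 0.99 in FL, 0.657 to 351 in ML and 0.516 to 1.08 in controls, the high value being ML 9. ML 9 had 1.63 CPM of Pdk4. The 5 heart muscle markers summed to 0.444 to 1.19 in FL, 0.744 to 2.41 in ML and 0.362 to 1.75 in controls. The 5 adipocyte markers summed to 0.111 to 0.405 in FL, 0.279 to 9.72 in ML and 0.509 to 8.23 in controls, and none of these 15 markers was at 0 in every library. Control 2, with 51.3 CPM of Pdk4, had 0.815 for skeletal muscle, 0.688 for heart and 0.509 for adipocyte markers, within the range of the other libraries or at the low end of the controls. The adipocyte sum was lower in every FL library than in every control library, as Pdk4 was. Apart from skeletal muscle in ML 9, these sums were low, at most 9.72 CPM over 5 genes. The part of muscle, heart or fat in the Pdk4 levels was not tested.

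Among other cell types, Kupffer cell markers summed to 190 to 274 CPM in FL, 185 to 872 CPM in ML and 182 to 379 CPM in controls. Erythroid markers summed to 127 to 249 CPM in FL, 313 to 2114 CPM in ML and 184 to 625 CPM in controls. The highest library was ML 9 and the next control 1 in both lists. These 2 libraries had the lowest Pdp2, at 7.76 and 8.83 CPM, and the lowest Pdk2, at 30.8 and 46 CPM, and the part of library quality in those values was not tested. Without the 2 libraries, 1 of the 7 genes other than Pdk4, Pdk1, was under an unadjusted p of 0.05 in ML against control (lowest unadjusted p 0.0278 and lowest adjusted p 0.143 in edgeR). That level was reached by 27.5% of all genes in this setting. In FL against ML, 1 of the 8 genes was under it, again Pdk1 (0.00219, with a lowest adjusted p of 0.213 in edgeR), beside 19.4% of all genes.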

How the data were processed

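Liver RNA of 10 libraries was analysed: 3 FL, 3 ML and 4 control. The authors deposited 1 table of raw read counts, with a row per gene. Libraries were directional and paired-end, from polyadenylated RNA, per the labels' protocols. STAR, featureCounts and the GRCm38 build are named in the submitters' processing notes; for versions, annotation release and strand setting, the sources used here give nothing. Of 46071 gene rows, 45229 matched GENCODE M21, which gave symbols, coordinates and exon lengths. Totals were 18655506 to 39379940 counts per library, and no pair within a group agreed within sampling noise (chi-square over genes, divided by its degrees of freedom, 91.7 to 644).

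Counts were tested with edgeR's robust quasi-likelihood F test (version 4.0.16, R 4.3.3) in 1 fit of the 3 groups, after TMM scaling and a filterByExpr minimum of 10 counts. There were 14820 genes, 7 residual degrees of freedom and a common biological coefficient of variation of 0.448. The threshold was a Benjamini-Hochberg adjusted p of 0.05, two-sided, over all genes. An SE is the absolute log2 fold change over the square root of F. The procedure was tested on simulated data. Levels per kb divide CPM by exon length.

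The 8 genes, the pathway lists and the cell type lists were chosen with earlier results of these data known. Named genes are the up to 3 of each list with the lowest p in FL and in ML against control, and the 8 genes of mean CPM of at least 1 most correlated with Pdk4 (log2 CPM, prior count 2). Genes called by DESeq2 and examples of a single library's values were added after their values were seen. The search for AGGTCA was also added later. Alternatives were DESeq2 1.42.0, limma-voom (limma 3.58.1) with and without quality weights, other scaling factors, no filter, fits without the third group, a surrogate variable (sva 3.50.0), removal of each library's length and GC trend, longest transcripts as length, and leaving out each library or control 1 with ML 9. Leaving out control 2 under DESeq2 and limma-voom was added after seeing the data, as were the lists and named genes without these libraries.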

Additional observations from a re-analysis of the deposited data

Results flagged for a closer look

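In controls (n = 4), 9 of 51 genes examined had a library far from the other 3, judged by the gap to the nearest library as a share of the group's whole range and Dixon's critical value. Chance flags about 1 in 20 such groups of normally spread values. Most of the 51 genes were picked from these same data, so their count cannot be weighed against that rate.

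Control 1 was the high library in 5 of them. Pdk1 had 130 CPM in control 1 against 65.6 to 72.5 CPM in the other controls. Mpc1 had 175 CPM against 51.2 to 53.2 CPM. Mpc2 had 493 CPM against 148 to 179 CPM. Dbt, the E2 of branched-chain 2-oxoacid dehydrogenase, had 114 CPM against 77.1 to 82.7 CPM. Lipt2 had 5.81 CPM against 1.55 to 1.97 CPM. Control 1 was the low library for Ppargc1b, a coactivator related to Ppargc1a, with 1.2 CPM against 5.3 to 5.53 CPM.

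Control 2 was the high library for Atf3, with 30.8 CPM against 1.75 to 6.13 CPM, and for Ppargc1a, with 13.8 CPM against 7.78 to 8.49 CPM. It was the low library for Egln3, a hypoxia-induced prolyl hydroxylase, with 9.86 CPM against 18.4 to 19.4 CPM. Atf3 was examined because it followed Pdk4 over libraries that include control 2, so its flag there is not independent of that choice. Pdk4 had 51.3 CPM in control 2 against 3.76 to 12.9 CPM in the other controls, a gap of 0.808 of the range. That gap was under the critical value, which does not show that control 2 is like the other controls. The Pdk4 level of control 2 was known when the genes were chosen, so the gap is a description and nothing is read from it.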

How the results depend on the processing

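Pdk4 stayed below 0 against control under all 23 alternatives, at -3.65 (without control 1) to -2.01 (limma-voom without control 2) in FL and at -3.42 (without ML 10) to -1.49 (surrogate variable) in ML. Of the 8 genes, edgeR called 0 in each comparison, and DESeq2 called 1, Pdk4, in FL and 1, Pdk4, in ML against control, and 1, Pdk4, in FL without control 2. The cause of the difference between tools was not tested. All-gene calls were 2 in FL against control (0 to 3 leaving out a library, 54 with DESeq2), 0 in ML against control (0 to 1, 56 with DESeq2) and 1 in FL against ML (0 to 2, 35 with DESeq2). With the longest transcript as length, the Pdk4 share of the kinase level was 1.29% in FL, 1.66% in ML and 9.53% in controls. Of 184 gene values under alternatives per comparison, 31 in FL against control, 30 in ML against control and 29 in FL against ML changed sign, none of them past the threshold in either direction, and the cause was not tested. In FL against control, the sign changed with DESeq2 without control 2 for Pdk3 (0.045), Pdp1 (-0.080), Pdp2 (0.070), Pdha1 (0.038), without control 1 and ML 9 for Pdk2 (-0.073), Pdhb (0.128), with library totals for Pdk3 (0.099), Pdha1 (0.072), Pdhb (0.125). It also changed with limma-voom for Pdk3 (0.042), with quality weights for Pdk2 (-0.208), Pdk3 (0.164), Pdhb (0.123), with limma-voom without control 2 for Pdk3 (0.140), Pdp2 (0.177), Pdha1 (0.009). It also changed with no filter for Pdhb (0.017), with the length and GC trend removed for Pdhb (0.002). In ML against control, the sign changed with DESeq2 without control 2 for Pdk1 (-0.023), Pdp1 (-0.050), Pdha1 (0.044), without control 1 and ML 9 for Pdha1 (0.267), Pdhb (0.202), with library totals for Pdk1 (-0.090), Pdp1 (-0.109). It also changed with quality weights for Pdk3 (0.025), Pdha1 (0.301), Pdhb (0.147), with limma-voom without control 2 for Pdk1 (-0.007), Pdk3 (0.095), with a surrogate variable for Pdk1 (-0.055), Pdk2 (0.134), Pdk3 (0.116), Pdp1 (-0.327), Pdp2 (0.346), Pdha1 (0.287). In FL against ML, the sign changed without control 1 and ML 9 for Pdp1 (0.073), Pdp2 (-0.056), Pdhb (-0.075), with library totals for Pdp1 (0.332), Pdha1 (0.221), with limma-voom for Pdha1 (0.143). It also changed with quality weights for Pdp1 (0.042), Pdp2 (-0.007), Pdhb (-0.024), with limma-voom without control 2 for Pdha1 (0.144), with no filter for Pdp1 (0.018), Pdha1 (0.008). It also changed with a surrogate variable for Pdk2 (-0.128), Pdk3 (-0.181), Pdp1 (0.583), Pdp2 (-0.734), with the length and GC trend removed for Pdp1 (0.015), Pdha1 (0.126), with upper-quartile factors for Pdk3 (-0.012). Leaving out each library in turn, the log2 fold changes that changed sign ranged as follows: in FL against control Pdk2 -0.332 to 0.322, Pdk3 -0.227 to 0.210, Pdp1 -0.306 to 0.433, Pdp2 -0.594 to 0.072, Pdha1 -0.181 to 0.133, Pdhb -0.091 to 0.122. They ranged in ML against control Pdk1 -0.248 to 0.333, Pdk3 -0.317 to 0.162, Pdp1 -0.136 to 0.476, Pdha1 -0.447 to 0.329, Pdhb -0.278 to 0.069. They ranged in FL against ML Pdk3 -0.094 to 0.285, Pdk4 -0.618 to 0.119, Pdp1 -0.402 to 0.274, Pdp2 -0.073 to 0.464, Pdha1 -0.395 to 0.384, Pdhb -0.091 to 0.260. Pdk1 in FL against control and in FL against ML kept its sign under all 23 alternatives. Library totals without TMM factors moved the median of all genes by 0.13, -0.20 and 0.33 (log2) in FL against control, ML against control and FL against ML, and the values under that setting include this shift. No paired analysis was possible because the groups share no replicate number. Pdk3 and Pdp1, with at most 54 counts a library, limit what a difference can show. Intervals cover these libraries only.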
